A study of Macaca fascicularis with 6 samples.

Results

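Interferon-stimulated genes are a set of 40 genes that were listed by name as typical targets of interferon signalling. Of these, 39 had a probe set on the Affymetrix Rhesus Macaque Genome Array, 36 were tested, and they made up 36 of the 12431 genes tested. IFI44L, a relative of IFI44, had none. A probe set was given to a gene by the name in its design, and a gene was represented by its brightest probe set over the 6 arrays. Left ventricular tissue came from 6 male cynomolgus monkeys aged 4 to 6 years, with 1 array per animal. Animals 11, 12, 13 and 14 were intact and had not been operated on, and where 4 signals are given for the intact hearts they follow that order. Animals 2 and 8 were taken 8 months after their atrioventricular node had been ablated by catheter. They had been given oral dl-sotalol in most months, vehicle and moxifloxacin, and repeated anesthesia with ketamine and xylazine. The study chose them as those with the most frequent torsade de pointes by then. The block, the drugs, the operation and the arrhythmia therefore cannot be told apart here. All animals were given thiopental (25 mg/kg) before the heart was taken, and a transmural piece of the left ventricular free wall was used, with 100 ng of total RNA.

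Interferons are secreted proteins that bind receptors on the cell surface and act through the kinases JAK1, JAK2 and TYK2 on transcription factors of the STAT family. For type I and type III interferons, phosphorylated STAT proteins join IRF9 in a complex that enters the nucleus and switches on genes that carry an interferon-stimulated response element. The products block viral entry, sense or degrade viral RNA, halt translation, tag proteins with the ubiquitin-like ISG15, and attract T cells, and many of them are also made at a low basal level in healthy tissue, the heart included.

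Brightness differed between arrays as deposited. The 2% trimmed mean of an array was between 75.1 and 88.2 in the intact hearts and was 54.6 and 73.5 in animals 2 and 8, so each array was scaled to a common trimmed mean, and every signal below is on that scale. Between 36.0% and 39.7% of probe sets were called Present on an array. The GAPDH controls gave a ratio of 3' to 5' signal, which is higher where RNA copies are shorter, of 2.17 to 2.65 in the intact hearts and 5.05 and 3.05 in animals 2 and 8 (p = 0.0667 in a 2-sided exact permutation test, and no smaller p can be reached with 4 and 2 animals). The same ratio of the ACTB controls was 7.85 to 10.9 in the intact hearts and 11.6 and 8.98 in animals 2 and 8, so that there the groups overlapped (p = 0.333 in the same exact test). All 11 cardiomyocyte markers with a probe set were Present on every array. With block, 10 of them lay above the intact level (median log2 fold change 0.17), where 49.7% of all genes did. The 3 erythrocyte markers with a probe set lay above it as well (median 0.79), and 0 markers of either kind were called by limma. HBB read 14371, 12020, 5412 and 9937 (intact), 19924 (animal 2) and 14460 (animal 8). The part of these cells in the results below was not tested. In a piece of whole tissue, fewer cells of a type and less RNA per cell cannot be told apart.

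As a set, the genes did not stand off from the intact level in one direction. Of 36 tested, 18 lay above (50%, beside 49.7% of all genes) and 18 below it, with a median log2 fold change of -0.014 (block against intact) beside -0.0024 over all genes tested. Their quartiles were -0.24 and 0.29, and those of all genes -0.21 and 0.21. By limma over all probe sets (2-sided, Benjamini-Hochberg adjustment) 0 interferon-stimulated genes were higher and 0 lower, where 0.00804% of all genes were called higher and 0.0241% lower. At an unadjusted p under 0.05, 1 was higher (IFI35, 2.78%, beside 3.86% of all genes) and 2 were lower (IFI27 and EIF2AK2, 5.56%, beside 4.51%). The lowest adjusted p of any of them was 0.369, that of IFI27. With 4 and 2 animals, a p that misses the threshold does not show that levels were alike. The 2 hearts with block lay on the same side of the intact mean in 22 of the 36 genes (61.1%, beside 60.7% of all genes), in 12 of them above it and in 10 below.

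Groups that did not overlap were found for 4 genes. In 1 of them, EPSTI1, both hearts with block lay above all intact hearts (2.78%, beside 8.66% of all genes), and in 3 of them, IFI27, ISG15 and EIF2AK2, below all intact hearts (8.33%, beside 9.68%). A log2 fold change of 0.5 or more was found for 3 genes (IFI35, EPSTI1 and CXCL10; 8.33%, beside 8.23%) and of -0.5 or less for 3 (IFI27, EIF2AK2 and GBP2; 8.33%, beside 8.71%). The shares for either fold limit were close to those of all genes, as was that of genes below all intact hearts, whereas genes above all intact hearts took a smaller share than among all genes, a count of 1.

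**Figure D1:**
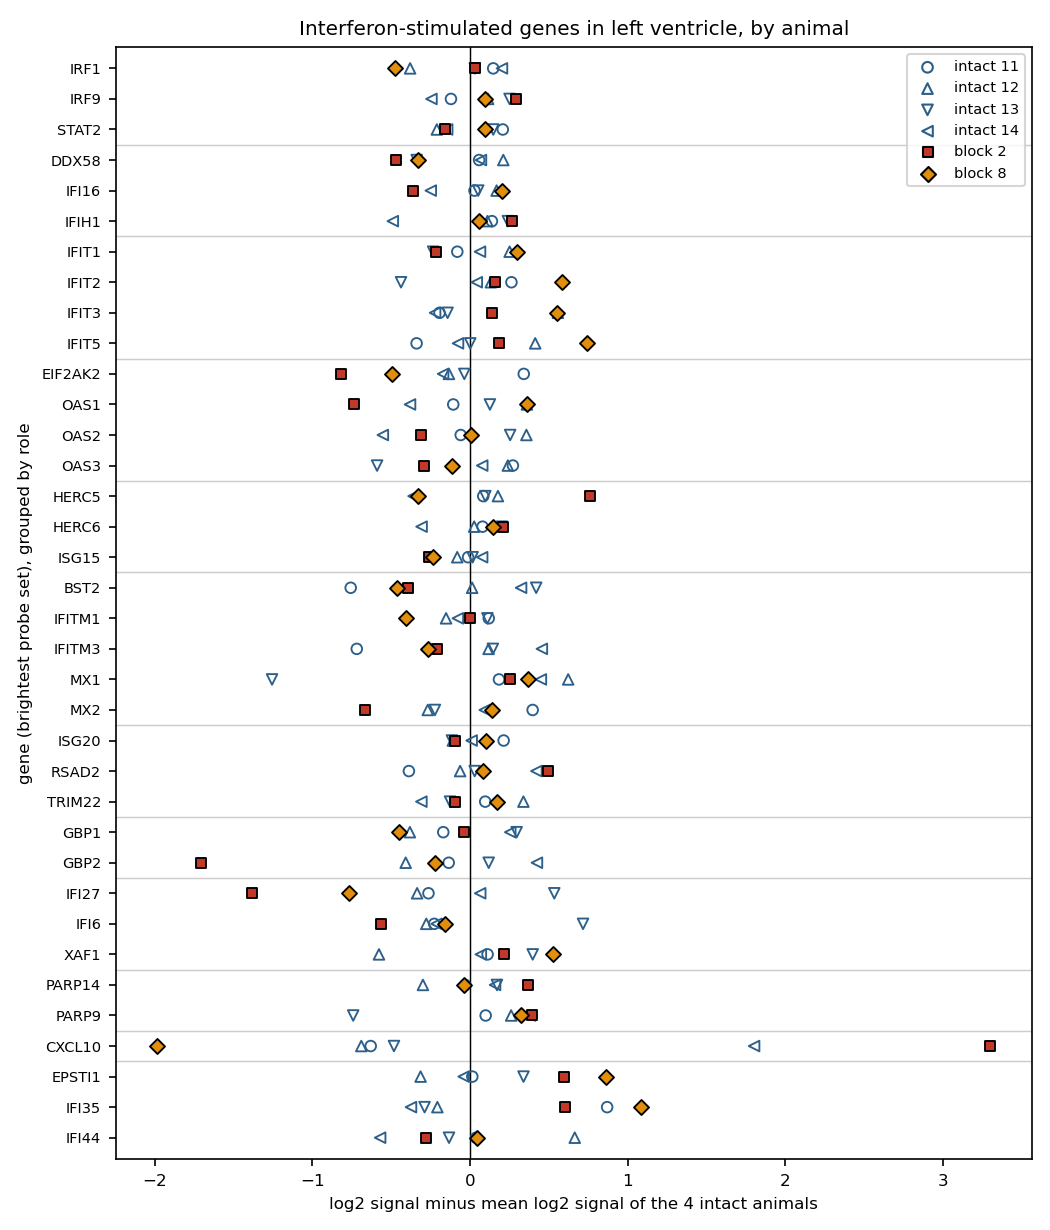
Log2 signal of the 36 tested interferon-stimulated genes in each animal, less the mean log2 signal of the 4 intact animals (x axis). Open symbols are the intact animals and filled symbols animals 2 and 8 with block. IFI27 and EIF2AK2 have both filled symbols to the left of all open ones, whereas CXCL10 has animal 2 far to the right and animal 8 far to the left.

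Among the ligands, the signal of the interferon genes themselves was near the array's limit. IFNA2, IFNB1 and IFNG were Present on no array, and IFNK only in animal 8. IFNL1, a type III interferon, was Present on 4 of 6 arrays, and of the 5 ligands with a probe set it alone could be tested. Its log2 fold change was -0.12 (SE 0.33, adjusted p = 0.941).

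All 6 interferon receptor genes were tested, and 0 passed. IFNAR1 and IFNAR2, the subunits of the type I receptor, had log2 fold changes of -0.035 and 0.56, and IFNGR1 and IFNGR2, those of the interferon gamma receptor, of 0.12 and 0.35. For IFNGR2 both hearts with block lay above all intact hearts. It read 78.5, 94.2, 88.3 and 78.9 (intact), 119.5 (animal 2) and 97.2 (animal 8) (SE 0.20, adjusted p = 0.690 by limma). IFNAR2 read 80.9, 114, 66.01 and 81.9 (intact), 113.5 (animal 2) and 135 (animal 8). Intact animal 12 was level with animal 2, so the groups overlapped (adjusted p = 0.614). IFNLR1, the specific chain of the type III receptor, read 61.9, 38.9, 150 and 110 (intact), 38.9 (animal 2) and 20.1 (animal 8), with animals 12 and 2 almost equal (log2 fold change -1.51, SE 0.52, adjusted p = 0.502). IL10RB, its partner chain, was at 0.034.

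The JAK kinases were Present on every array, as was STAT3. JAK2, the kinase of the interferon gamma receptor, read 145, 118, 93.0 and 134 (intact), 173 (animal 2) and 177 (animal 8). Both hearts with block lay above every intact heart, with a log2 fold change of 0.53 (SE 0.22, unadjusted p = 0.0388, adjusted p = 0.577). JAK1, TYK2 and STAT3 had log2 fold changes between 0.019 and 0.12.

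Of the transcription factors among the 40 genes, STAT2, IRF9 and IRF1 were tested and IRF7 was not. STAT2 and IRF9, members of the complex that binds the response element, had log2 fold changes of -0.032 (SE 0.21) and 0.19 (SE 0.21). IRF1, which interferon gamma induces, was at -0.22 (SE 0.25). The 3 adjusted p-values lay between 0.836 and 0.977. IRF7, which amplifies the type I response, was Absent on every array, and so were USP18, the protease that removes ISG15 from proteins, and OASL, a synthetase-like protein. All 3 are induced strongly by interferon, and they were the genes with a probe set that could not be tested.

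IRF3, outside the 40 genes, is the factor that turns on interferon beta after viral sensing. It read 124, 189, 292 and 245 (intact), 111 (animal 2) and 108 (animal 8). Both hearts with block lay below the lowest intact heart, animal 11, by a small margin (log2 fold change -0.88, SE 0.32, unadjusted p = 0.0215, adjusted p = 0.513). PTPN6, the phosphatase SHP-1, had a log2 fold change of -0.62 (adjusted p = 0.662). Its signals were dim, with Marginal calls in both hearts with block and an Absent call in intact animal 14.

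The RNA and DNA sensors among the genes had no common direction. DDX58 encodes RIG-I, a sensor of viral RNA with a free end, and read 186, 207, 141 and 188 (intact), 129 (animal 2) and 142 (animal 8). Intact animal 13 lay between the hearts with block, and the log2 fold change was -0.40 (SE 0.21, adjusted p = 0.653). Its second tested probe set had a log2 fold change of -0.39. IFIH1, which encodes the long-RNA sensor MDA5, was at 0.16 (SE 0.27), and IFI16, a sensor of DNA, at -0.078 (SE 0.20).

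For 2 of the sensors a dimmer probe set gave another picture. The second tested probe set of IFIH1 read 7.68, 10.5, 8.90 and 8.70 (intact), 3.52 (animal 2) and 10.2 (animal 8), with Absent calls in animals 11 and 2 (log2 fold change -0.57, SE 0.65, adjusted p = 0.849). The second one of IFI16 was Present throughout and read 64.6, 75.1, 112 and 86.8 (intact), 55.0 (animal 2) and 53.3 (animal 8). There the groups did not overlap (log2 fold change -0.61, adjusted p = 0.585), whereas on the brightest probe set animal 8 (704) was the highest of all animals and animal 2 (476) the lowest. Of the other sensors and adaptors, AIM2, a DNA sensor of the inflammasome, had a log2 fold change of 0.81 and DHX58, the RIG-I relative LGP2, of -0.38 (adjusted p = 0.676 and 0.727). The AIM2 signals were dim, with Absent calls in intact animals 11, 12 and 14 (SE 0.46). Its groups overlapped, since animal 2 (20.6) lay below intact animal 13 (21.4).

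The IFIT proteins bind foreign RNA and block its translation, and their 4 genes lie side by side on chromosome 9 (rhesus build Mmul_051212, with probe sets from 88885831 to 88975657). All 4 lay above the intact level, with log2 fold changes of 0.043 (IFIT1, SE 0.22), 0.37 (IFIT2, SE 0.26), 0.35 (IFIT3, SE 0.25) and 0.46 (IFIT5, SE 0.29), and with adjusted p-values from 0.709 to 0.971. IFIT3 read 527, 887, 546 and 517 (intact), 663 (animal 2) and 884 (animal 8). Animal 8 was as high as intact animal 12, and animal 2 lay between that animal and the other intact hearts. On the brightest probe sets animal 8 was the highest or second highest of the 6 animals for each of the 4 genes. This held for the second probe sets of IFIT2 and IFIT3 but not for that of IFIT5. The latter read 19.5, 45.1, 32.7 and 47.0 (intact), 42.3 (animal 2) and 39.6 (animal 8), with both hearts with block within the intact range (log2 fold change 0.26). All 4 genes were read on the same 6 arrays, so they do not count as 4 independent observations.

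IFIT2 was the gene whose identity on the array depended on the probe set. The study picked it and IFI27 on these same arrays, so neither is an independent choice. Its brightest design-named probe set, from 88887237 to 88887831, read 80.5, 73.5, 49.5 and 69.1 (intact), 74.996 (animal 2) and 100.4 (animal 8). Animal 8 lay above all intact hearts and animal 2 within them. The other design-named one, from 88885831 to 88886395, read 27.3, 27.7, 28.9 and 37.8 (intact), 41.2 (animal 2) and 38.3 (animal 8), so that the groups did not overlap (log2 fold change 0.40, SE 0.27, adjusted p = 0.743).

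The array's annotation gives the symbol IFIT2 to 6 probe sets, of which 4 do not align to chromosome 9. These 4 align to chromosome 3, between 161072455 and 161089355. There the workbook's transcript assignments name NDUFA5, a subunit of respiratory complex I. In the cynomolgus RefSeq annotation NDUFA5 also lies on chromosome 3, next to ASB15, and IFIT2 on chromosome 9, next to IFIT3. Of the 4, 1 was designed as NDUFA5, and the other 3 have no design name.

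Of the 3 without a design name, the brightest read 2534, 2925.5, 2182 and 2551 (intact), 645 (animal 2) and 2159 (animal 8). Animal 8 was just below the lowest intact heart, and animal 2 was far below all others (log2 fold change -1.10, SE 0.39, unadjusted p = 0.0205, adjusted p = 0.513). The second read 396, 347, 317 and 429 against 269.8 and 259 (log2 fold change -0.48, adjusted p = 0.534), and the third 242, 307, 201 and 464 against 27.3 and 199, with an Absent call in animal 2 (-1.97, adjusted p = 0.495). In all 3 both hearts with block lay below all intact hearts, opposite in direction to the IFIT2 probe sets on chromosome 9. The probe set designed as NDUFA5 read 1872, 2081, 1333 and 1660.1 (intact), 1742 (animal 2) and 1396 (animal 8). Its groups overlapped (log2 fold change -0.14, SE 0.20, adjusted p = 0.883), so it did not follow the 3 unnamed ones either. The 3 unnamed probe sets were left out of IFIT2 here because their transcript assignment names NDUFA5 and not IFIT2. This choice was made after their values had been seen. With them, IFIT2 would be represented by the brightest one and have the log2 fold change of -1.10.

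**Figure D2:**
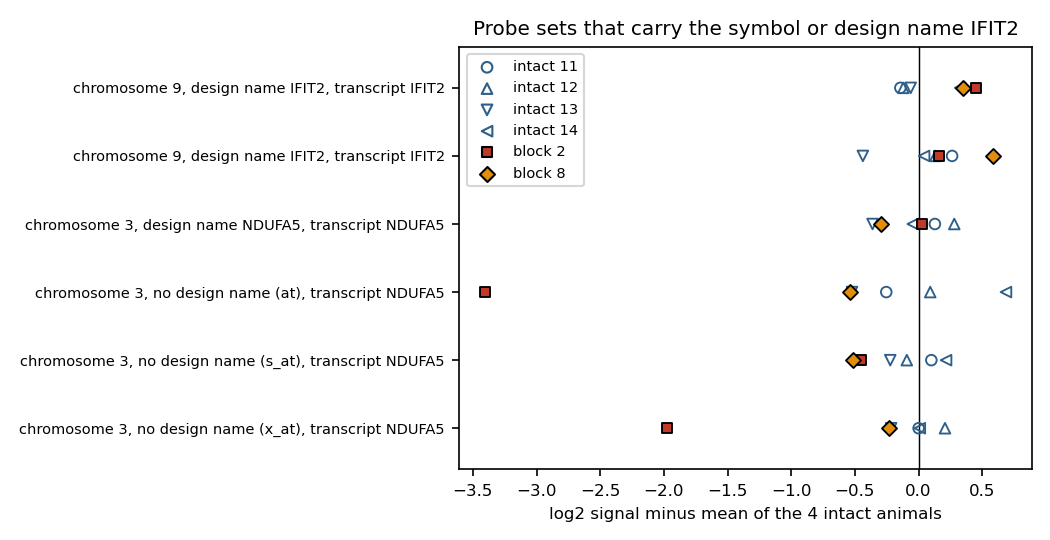
Log2 signal of the 6 probe sets that carry the symbol IFIT2, less the mean of the 4 intact animals (x axis), with their chromosome, design name and assigned transcript on the y axis. The 2 on chromosome 9 have animals 2 and 8 (filled) to the right of zero, and the 3 without a design name on chromosome 3 have both to the left of all intact animals (open), with animal 2 far from animal 8 in 2 of the 3.

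The oligoadenylate synthetases make the second messenger that activates RNase L, and the protein kinase PKR, encoded by EIF2AK2, halts translation on binding double-stranded RNA. The 4 tested genes of this kind all lay below the intact level, with OAS1, OAS2 and OAS3, neighbours on chromosome 11, at -0.19, -0.15 and -0.20 (SE 0.34, 0.34 and 0.31). These values were smaller than their standard errors. OAS1 read 76.6, 106, 90.0 and 63.3 (intact), 49.5 (animal 2) and 106 (animal 8), so that animal 2, which was called Absent, was the lowest of all and animal 8 was level with the highest intact heart.

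EIF2AK2, on chromosome 13 from 37095099 to 37095850, read 47.6, 34.2, 36.6 and 33.4 (intact), 21.3 (animal 2) and 26.7 (animal 8). It was Present on all arrays, and both hearts with block lay below every intact heart. Intact hearts averaged 38.0 ± 6.57 (SD, n = 4) and those with block 24.0 ± 3.81 (SD, n = 2), and the fold between the means of log2 signals was 0.634. The log2 fold change was -0.66 (SE 0.29, unadjusted p = 0.0481, adjusted p = 0.602 by limma), and the gene has only this 1 probe set.

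ISG15 is the ubiquitin-like modifier of the response, and HERC5 is the ligase that attaches it to proteins in human cells. ISG15, on chromosome 1 from 4090965 to 4091931, read 85.1, 81.2, 86.9 and 90.6 (intact), 71.7 (animal 2) and 73.1 (animal 8). The groups did not overlap, and the spread within each was small, at 85.9 ± 3.90 (SD, n = 4) and 72.4 ± 0.939 (SD, n = 2). The difference was small as well, a fold of 0.843, and with limma's variance trend the log2 fold change of -0.25 had an SE of 0.19 (adjusted p = 0.769).

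HERC5 read 30.1, 32.1, 30.4 and 22.2 (intact), 48.2 (animal 2) and 22.6 (animal 8), with the highest value in animal 2 and animal 8 as low as intact animal 14 (log2 fold change 0.22, SE 0.37). HERC6, its neighbour on chromosome 5, had a log2 fold change of 0.18 (SE 0.26). UBA7 and UBE2L6, the activating and conjugating enzymes for ISG15, were at -0.19 and -0.29, with adjusted p-values of 0.856 and 0.793.

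Of the proteins that act at membranes or on entering virus, BST2 (tetherin, which holds budding virus at the cell surface) had a log2 fold change of -0.43, with 158, 269, 357 and 334 (intact), 203 (animal 2) and 194 (animal 8). Intact animal 11 was the lowest of all, so the groups overlapped (SE 0.31, adjusted p = 0.752). IFITM1 and IFITM3, which hinder viral fusion, had log2 fold changes of -0.20 and -0.24 (SE 0.18 and 0.30). The IFITM genes form a family of near-identical copies, and the IFITM3 probe set has 7 alignments in the annotation and that of IFITM1 has 2, so which copy was measured is uncertain. The IFITM3 probe set was placed on chromosome 7 and that of IFITM1 on chromosome 14. A probe set designed as IFITM2, also on chromosome 14, carries the symbol IFITM3 in the annotation. It averaged 2039 in the intact hearts, where the IFITM3 one averaged 158, and its log2 fold change was -0.18 (SE 0.19). The second probe set of IFITM1 had a log2 fold change of -0.48 (adjusted p = 0.662).

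The dynamin-like GTPases MX1 and MX2, which trap viral nucleocapsids, lie next to each other on chromosome 3, and MX1 had a log2 fold change of 0.31 (SE 0.48) and MX2 of -0.26 (SE 0.32). MX1 read 68.0, 92.2, 25.0 and 81.7 (intact), 71.3 (animal 2) and 77.2 (animal 8). The low value of intact animal 13, which was called Absent, sets the direction, and without that animal the log2 fold change was -0.11. RSAD2 (viperin), ISG20, an RNA exonuclease, and TRIM22, a ubiquitin ligase, had log2 fold changes of 0.29, 0.0044 and 0.038. The second probe set of TRIM22 read 64.4, 86.7, 59.0 and 44.9 (intact), 104 (animal 2) and 84.5 (animal 8), with animal 8 just below intact animal 12 (log2 fold change 0.60, adjusted p = 0.633).

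The guanylate-binding proteins GBP1 and GBP2 are GTPases that interferon gamma induces, and they attack the vacuoles of intracellular pathogens. GBP1, with 8 probe sets, had a log2 fold change of -0.24 on the brightest (SE 0.25, adjusted p = 0.824). Of its other tested probe sets 3 lay below 0 and 1, which was Present on 3 of 6 arrays, above it. That one read 22.6, 3.70, 8.90 and 19.4 (intact), 21.0 (animal 2) and 13.6 (animal 8), within the intact range (log2 fold change 0.63, SE 0.74, adjusted p = 0.855). Of the 3 below 0, the lowest was at -1.16 (SE 0.56, adjusted p = 0.640) and was Present on 2 of 6 arrays. It read 18.1, 19.1, 19.5 and 21.5 (intact), 17.7 (animal 2) and 4.30 (animal 8, called Absent). Both hearts with block lay below all intact hearts there. The others were at -0.86 and -0.28.

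GBP2 read 15.6, 12.9, 18.6 and 23.0 (intact), 5.25 (animal 2) and 14.7 (animal 8). Animal 2, which was called Absent, was below all others, and animal 8 lay within the intact range, so the log2 fold change of -0.96 (SE 0.53, adjusted p = 0.668) rests on animal 2 and was -0.22 without it. A second probe set was Absent in both hearts with block, where it read 1.69 and 1.02, and in intact animals 11 (7.57) and 13 (14.7), and it read 6.77 in animal 12 and 23.5 in animal 14 (log2 fold change -3.13, SE 0.84, adjusted p = 0.403). Both hearts with block lay below all intact hearts there, in signals at the bottom of the array's range. GBP genes are alike in sequence and lie in 1 cluster on chromosome 1, so their probe sets can share signal.

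IFI27 and IFI6 encode small hydrophobic proteins of mitochondria and other membranes, and XAF1 encodes a proapoptotic partner of XIAP. IFI27, on chromosome 7 from 157341849 to 157346907, read 2092, 1989.6, 3638 and 2626 (intact), 960.4 (animal 2) and 1475 (animal 8). Both hearts with block lay below the lowest intact heart, animal 12. The mean was 2586 ± 755 (SD, n = 4) against 1218 ± 364 (SD, n = 2), and the fold between the means of log2 signals was 0.474. Against the intact level, animal 2 was at 0.382 and animal 8 at 0.588.

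The log2 fold change of IFI27 was -1.08 (SE 0.27) with an unadjusted p of 0.00335 and an adjusted p of 0.369 by limma, which made it the largest difference among the 36 tested genes by their brightest probe sets, and the lowest in p. It was -0.77 without animal 2 and -1.39 without animal 8, and it did not pass under any alternative, with adjusted p-values from 0.305 to 0.692. The array carries 1 probe set for IFI27, which also aligns to a second place in the genome, so its value cannot be compared between probe sets. Animal 2, which had the lowest IFI27 signal, also had the highest 3' over 5' ratio for both GAPDH and ACTB, and the part of this in the result was not tested. The summed signal of the 10 endothelial markers was 3437 to 4048 in the intact hearts, 3347 in animal 2 and 4052 in animal 8, with 7 of 10 below the intact level (median log2 fold change -0.12), and its part was not tested either.

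IFI6, on chromosome 1 from 30352103 to 30352498, read 1336, 1290.3, 2571.5 and 1349.9 (intact), 1059 (animal 2) and 1398 (animal 8). Intact animal 13 stood apart from the other 3 intact hearts, as the highest animal for both IFI27 and IFI6, and animal 8 lay above those 3. The log2 fold change was -0.36 (SE 0.29, adjusted p = 0.774). XAF1 was at 0.37 (SE 0.32, adjusted p = 0.789), with animal 8 (52.3) the highest of all and animal 2 (42.1) below intact animal 13 (47.8).

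**Figure D3:**
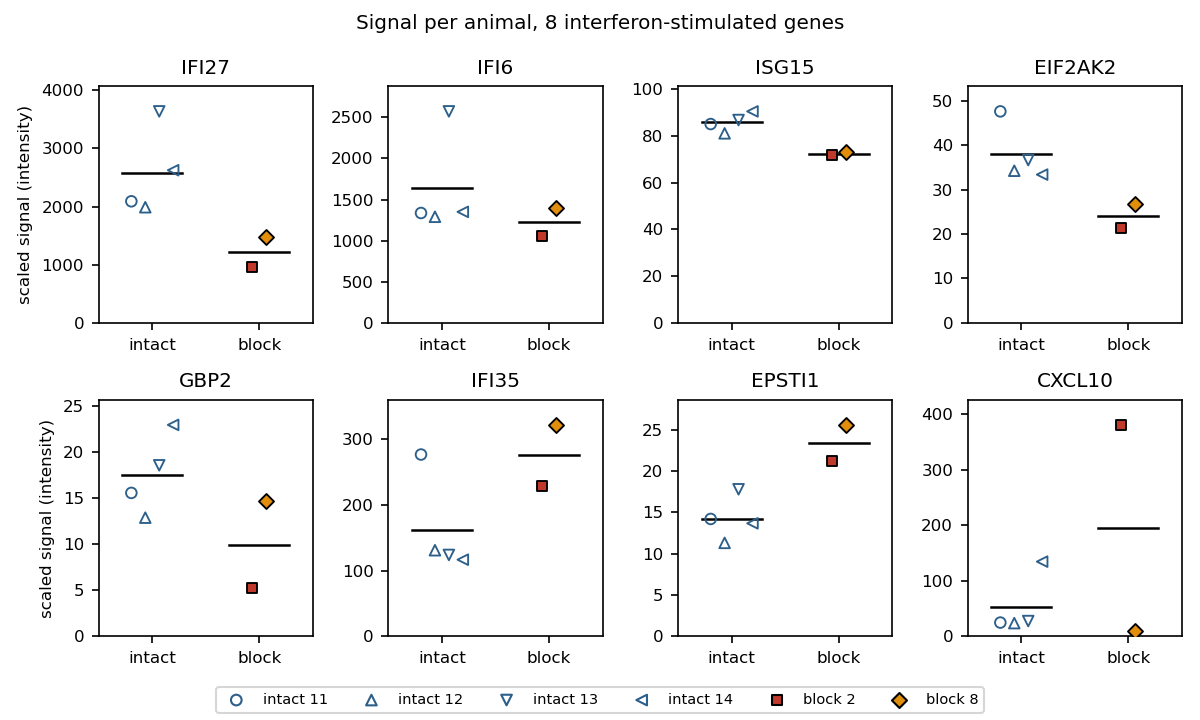
Scaled signal (intensity, axis from 0) of 8 interferon-stimulated genes in the 4 intact animals (open) and in animals 2 and 8 with block (filled), with a bar at the arithmetic mean of each group. Both filled symbols lie below all open ones for IFI27, ISG15 and EIF2AK2 and above them for EPSTI1, and animal 2 alone is high for CXCL10.

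CXCL10 is the chemokine that interferon gamma induces and that attracts T cells through CXCR3. It read 24.9, 23.9, 27.6 and 134 (intact), 380.3 (animal 2) and 9.74 (animal 8). Animal 2 was the highest of all and animal 8, which was called Absent, the lowest, with intact animal 14 second. Its other probe set, Present on all arrays, gave the same order at the top and animal 8 again as the lowest. It read 26.5, 26.9, 37.9 and 82.5 (intact), 193 (animal 2) and 16.8 (animal 8). On the brightest probe set the log2 fold change of 0.66 had an SE of 1.27 (adjusted p = 0.914), and it was -1.98 without animal 2 and 3.30 without animal 8.

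Animals 2 and 14 were also the 2 highest for CXCL11, another ligand of CXCR3, with 79.4 and 57.1, where the other animals read 4.14 to 27.4. CXCL9, the third such ligand, was highest in animals 14 (119), 2 (115) and 11 (106), and 21.3 to 50.5 in the rest. For all 3 chemokines the highest animals came from both groups. The summed signal of the 9 T and NK cell markers was 194 to 281 in the intact hearts and 268 and 251 in animals 2 and 8. Animals 14 and 2 were the 2 highest by a small margin, and CD3E, NKG7 and CCL5 were Present on no array. Only 3 of the 9 were tested, and they did not share this order. CD8A was highest in animal 8, at 152, where the other animals read 40.2 to 55.6 (log2 fold change 0.96, adjusted p = 0.577 by limma). CD3D and GZMB were lowest in animal 8, with log2 fold changes of -0.43 and -0.13. The summed signal of the 4 neutrophil markers was highest in the same 2 animals (80.7 and 64.6, where the others had 9.79 to 38.9). S100A9, S100A12 and CSF3R were Present on no array, and S100A8 only in animals 14 and 2. The single markers did not all share this order. For S100A8 and S100A9 these were also the 2 highest animals. For S100A12 another intact animal lay above animal 2, and for CSF3R animal 8 did. The part of T and NK cells and of neutrophils in the chemokine signals was not tested.

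PARP9 and PARP14 belong to the ADP-ribosyltransferase family and are induced by interferon, and both lie on chromosome 2. Their log2 fold changes were 0.36 (SE 0.35) and 0.16 (SE 0.29). The second probe set of PARP9 read 22.6, 26.5, 26.4 and 29.7 (intact), 20.8 (animal 2) and 11.8 (animal 8), with Absent calls in animals 12, 2 and 8. There both hearts with block lay below all intact hearts (log2 fold change -0.74, SE 0.36, adjusted p = 0.636), opposite to the brightest probe set, so that PARP9 has no settled direction.

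IFI35 is a cytosolic partner of NMI in the interferon response. On chromosome 16 from 53144798 to 53145099, it read 276, 131, 124 and 117 (intact), 229 (animal 2) and 321 (animal 8). Both hearts with block lay above 3 of the intact hearts, and intact animal 11 lay between them. Intact hearts averaged 162 ± 76.5 (SD, n = 4) and those with block 275 ± 65.3 (SD, n = 2), with a fold of 1.79 between the means of log2 signals (log2 fold change 0.84, SE 0.35, unadjusted p = 0.0399, adjusted p = 0.580). Without animal 11 the log2 fold change was 1.13 and the adjusted p = 0.2505, the lowest that any of the genes reached under any alternative. NMI, its partner, read 142, 97.8, 106 and 115 (intact), 71.1 (animal 2) and 164 (animal 8), the lowest and the highest of all, with a log2 fold change of -0.077.

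EPSTI1 (epithelial stromal interaction 1), an interferon-induced gene, was near the limit of detection, with its brightest probe set Present only in intact animal 13 and in animal 8. It read 14.2, 11.3, 17.8 and 13.7 (intact), 21.2 (animal 2) and 25.6 (animal 8). Both hearts with block lay above all intact hearts, a fold of 1.66 (log2 fold change 0.73, SE 0.38, adjusted p = 0.658). Its other tested probe set, Present in animals 11, 12 and 2, read 24.7, 9.54, 14.9 and 9.34 (intact), 23.6 (animal 2) and 13.8 (animal 8). There intact animal 11 was the highest of all, so the groups overlapped (log2 fold change 0.42, SE 0.53, adjusted p = 0.864). The summed signal of the 9 macrophage markers with a probe set was 546 to 874 in the intact hearts and 731 and 1402 in animals 2 and 8, and 9 of 9 lay above the intact level (median log2 fold change 0.57), with CD163 alone above all intact hearts in both. The part of macrophages in the EPSTI1 signal was not tested. IFI44, a cytoplasmic protein of the response, was at -0.12 (SE 0.34), and its second probe set, at 0.46, had both hearts with block (62.6 and 50.8) above all intact hearts (28.6 to 50.2).

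The wider pathway was read from a second list of 93 genes, of which 82 had a probe set and 59 were tested. Of these, 0 were called higher and 0 lower by limma, and at an unadjusted p under 0.05, 1 was higher (JAK2) and 3 were lower (IFNLR1, IRF3 and PSMB8), where 3.86% and 4.51% of all genes were. Both hearts with block lay above all intact hearts in 4 of the 59 and below them in 8, where 8.66% and 9.68% of all genes did so. The median log2 fold change was -0.033, with 29 genes above and 30 below the intact level. Of 23 tested interferon-induced genes outside the main list, 14 lay above and 9 below, with a median of 0.045. LAP3, an aminopeptidase, had the lowest p of these, and it read 1531, 927, 643 and 434 (intact), 2170.1 (animal 2) and 1097 (animal 8), with animal 8 below intact animal 11 (log2 fold change 0.96, adjusted p = 0.636).

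Genes of antigen presentation, most of which serve MHC class I and 1 of which, CD74, is the invariant chain of class II, are induced by interferon gamma. Of the 10 tested, 9 lay below the intact level and 1 above it (where 49.7% of all genes lay above), with a median log2 fold change of -0.22 and 0 called in either direction. PSMB8, TAP1 and PSMB9 lie close together on chromosome 4 (from 32537136 to 32555212), which also carries TAPBP. PSME1 and PSME2 lie close together on chromosome 7. The 10 genes are therefore not independent of each other, and their count does not weigh like that of separate genes. The 4 with both hearts with block below all intact hearts were PSMB8, TAPBP, NLRC5 and PSME2, where 9.68% of all genes did so, and PSMB10 was the 1 with both above, where 8.66% did. PSMB8, a catalytic subunit of the immunoproteasome, read 125, 102, 99.8 and 125 (intact), 78.6 (animal 2) and 47.8 (animal 8). Its log2 fold change was -0.87 (SE 0.25, unadjusted p = 0.00725, adjusted p = 0.428). TAPBP, the loading chaperone tapasin, read 318, 364, 323 and 409 (intact), 278 (animal 2) and 272 (animal 8), with little spread in the hearts with block (log2 fold change -0.35, SE 0.17, adjusted p = 0.640). NLRC5, the transactivator of class I genes, and PSME2, a proteasome activator, were at -0.46 and -0.29, with an Absent call for NLRC5 in animal 2. PSMB9, another catalytic subunit, was at -0.097, and B2M, the light chain of class I molecules, at -0.099 (SE 0.16).

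**Figure D4:**
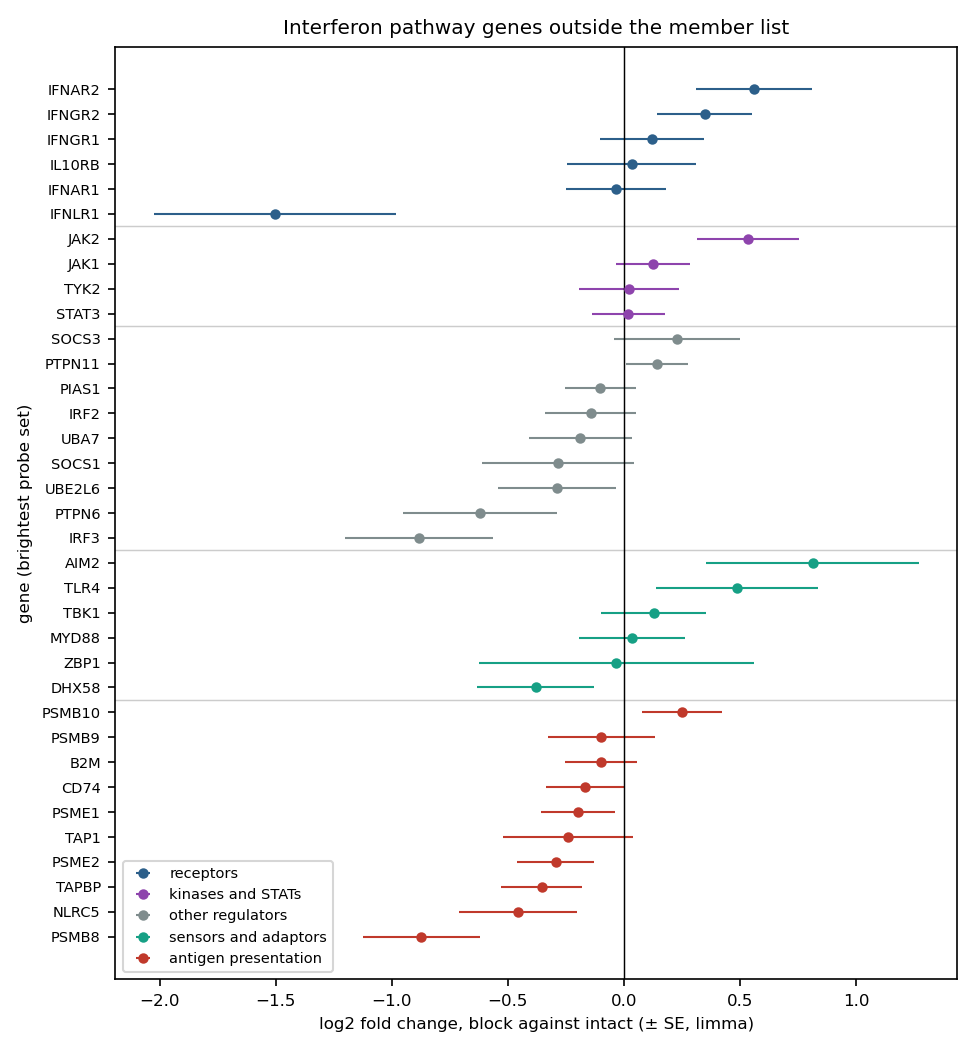
Log2 fold change (block against intact) with its standard error from limma for the tested receptors, kinases and STATs, other regulators, sensors and antigen presentation genes of the interferon pathway. None passed an adjusted p of 0.05, and 9 of the 10 antigen presentation genes lie to the left of 0, the exception being PSMB10.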

How the data were processed

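RNA of 1 left ventricular piece per animal was amplified from its 3' end and hybridized to 1 array per animal (4 intact, 2 with block). The authors computed the signals with MAS5 and gathered them in GeneSpring GX. The deposited workbook holds, per probe set and array, a signal (intensity, linear scale), a detection call, a detection p-value (p-value as deposited, not adjusted) and a normalized log2 value, which the authors made by subtracting the array's median and the intact median. Another deposited table repeats these intensity values. 6 columns on probe pairs were left out.

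Signals were scaled so that all arrays shared 1 trimmed mean (2%), then put on the log2 scale with no offset. Of 52706 probe sets without controls, 22577 Present on at least 2 arrays were tested with limma 3.58.1 in R 4.3.3 (eBayes with a variance trend, 2-sided, Benjamini-Hochberg over all tested, threshold 0.05), a step tested on simulated data. Tables were handled with pandas 2.3.3 in Python 3.11.15 and plots drawn with matplotlib 3.10.9. The study states no test for the arrays. Precision is limited by the number of arrays and by dim signals.

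Of the 39 genes with a probe set, 6 were found under an older design name. A probe set with no design name took the annotation's symbol unless its transcript assignment named only other genes (433 probe sets, 3 of them with the symbol IFIT2), a rule added after values had been seen. The genes and lists were chosen with earlier results of these data known. Values of each animal are given for IFI27, IFIT2, genes whose groups do not overlap or whose log2 fold change is at least 0.5 in size, and probe sets that oppose the brightest by as much. Of other pathway genes those of lowest p in each role are named, with every receptor and JAK kinase and others that bear on a gene described. The rest enter only the counts and the plot, and 1 gene was left out of the list. The alternatives were other scalings, an offset of 32, other filters, eBayes without a trend or robust, averaged probe sets of a gene, the annotation's symbols, and each animal left out.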

Additional observations from a re-analysis of the deposited data

Results flagged for a closer look

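In 4 of the 36 tested genes 1 intact animal stood apart from the other 3 by Dixon's test on the log2 scale (11.1%, beside 5.29% of all genes tested the same way, and chance flags about 1 in 20). CXCL10 was high in intact animal 14, at 134, which was 2.43 above the median of the other 3 on the log2 scale. IFI35 was high in animal 11, at 276 (1.16 above), IFI6 in animal 13, at 2571.5 (0.94 above), and IFIT3 in animal 12, at 887 (0.75 above). Each of the 4 intact animals was the one that stood apart for 1 gene, and in all 4 genes it was high rather than low. For IFI35 and IFIT3 the animal that stood apart reached the level of the hearts with block, and for IFI6 it lay above both of them.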

How the results depend on the processing

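No interferon-stimulated gene and no gene of the wider pathway list passed under any of the 18 alternatives, and the lowest adjusted p of an interferon-stimulated gene was 0.2505. Over all probe sets, limma called 1 higher and 4 lower. It called 0 and 0 with quantile normalization, with the authors' normalized columns and without a variance trend, 4 higher with an offset of 32 and 2 higher with robust eBayes, and between 0 and 2 higher and 0 and 2 lower when 1 animal was left out. The median log2 fold change of the set (-0.014) was -0.098 over genes Present on all 6 arrays and 0.053 with the annotation's symbols only, and ran from -0.073 to 0.070 when 1 animal was left out. Over all probe sets the median stayed between -0.0080 and 0.021. IFIT2, at 0.37, was -1.10 with the annotation's symbols only, and -1.10 with that symbol kept for probe sets without a design name, the latter an alternative added after seeing the data.

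Of 620 values of single genes under alternatives, 588 kept their sign and stayed short of the threshold, and 32, in 18 genes, changed sign. With a gene's probe sets averaged these were IFI44 (0.17), STAT2 (0.027), IFIH1 (-0.20) and PARP9 (-0.19), and with the annotation's symbols OAS1 (0.076) and STAT2 (0.087). With 1 animal left out, CXCL10 ran from -1.98 to 3.30, HERC5 ran from -0.33 to 0.76, IFI16 ran from -0.36 to 0.20, IFI44 ran from -0.31 to 0.10, IFIH1 ran from -0.0013 to 0.27, IFIT1 ran from -0.22 to 0.30, IFITM1 ran from -0.41 to 0.0010, IRF1 ran from -0.48 to 0.032. In the same way ISG20 ran from -0.094 to 0.10, MX1 ran from -0.11 to 0.52, MX2 ran from -0.67 to 0.14, OAS1 ran from -0.74 to 0.36, OAS2 ran from -0.33 to 0.0093, PARP14 ran from -0.041 to 0.37, STAT2 ran from -0.16 to 0.096 and TRIM22 ran from -0.092 to 0.17. The cause was not tested. Where animal 2 or 8 was left out, the other one was assumed to vary like the intact hearts. No paired analysis was possible because the groups share no replicate numbers. Signals of probe sets called Absent, such as the brightest one of CXCL10 in animal 8, lie within the array's background, and differences there cannot be sized.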
